A study of Rattus norvegicus with 24 samples.

Results

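Genes of protein folding and quality control in the endoplasmic reticulum (ER) were followed in rat hepatocytes after 4 piperazine designer drugs. The group was a list of 40 named genes, 38 of them with a probe set that names them alone on the array, among 14217 genes measured in all. Derl3, an ERAD channel protein, and Ern1, the IRE1 sensor, had no probe set with their symbol alone and so have no value here. Where several probe sets named a gene, the one with the highest mean was used.

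The cells were primary rat hepatocytes kept between collagen layers, a sandwich culture that preserves liver functions. They were exposed for 24 h to BZP at 625 µM, TFMPP at 35 µM, MeOPP at 522 µM or MDBP at 467 µM, each the EC20 per the labels, so concentrations differed between drugs. Controls received 0.1 percent DMSO for the same time, and the labels name 1 control for each treated sample. Whether the drugs were also given in DMSO is not stated in the labels. This gave 24 arrays in 8 groups of 3, or 12 pairs. The labels give neither the strain and age of the rats nor whether samples came from separate animals, so the spread behind the p-values may be technical.

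Proteins bound for secretion enter the ER through the translocon and are folded there by chaperones, by the calnexin and calreticulin cycle of glycoproteins and by disulfide and proline isomerases. Proteins that fail to fold are drawn back to the cytosol and degraded, a route called ERAD. When unfolded proteins gather, the sensors ATF6, IRE1 and PERK start the unfolded protein response (UPR): ATF6 and the spliced form of XBP1 activate genes of folding and ERAD, while PERK slows translation and raises ATF4. Hepatocytes secrete most plasma proteins and hold a large ER.

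Averaged over the 4 drugs, the group fell. In limma with Benjamini-Hochberg adjustment over all probe sets (adjusted p under 0.05, the rule for every call below), 25 of 38 members (65.8%) were lower and 2 were higher, Eif2ak3 and Dnajc10. Over all genes 11.9% were called lower and 18.0% higher. The members' median change was -0.24 on the log2 scale (treated minus paired DMSO, used for every change below), with 33 of 38 below 0, and the median over all genes was 0.012. The changes were small: the deepest, that of the disulfide isomerase Pdia4, was 1.5-fold. These calls rest on the pairing and on how arrays that resemble each other are counted. Without the pair terms 4 members were lower (Hsp90b1, Calr, Pdia4 and Edem1) and 0 higher. The arrays fell into 5 sets by their correlations, and with 1 value per set 13 of the 25 lower calls remained. The calls lost there were Hspa5, Dnajb11, Manf, Pdia3, Pdia6, P4hb, Ero1a, Syvn1, Derl1, Atf6, Sec61a1, Ssr2 and, of the higher ones, Dnajc10. Without array set 1, which holds pair 1 of every drug, 14 of the 25 remained.

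**Figure D1:**
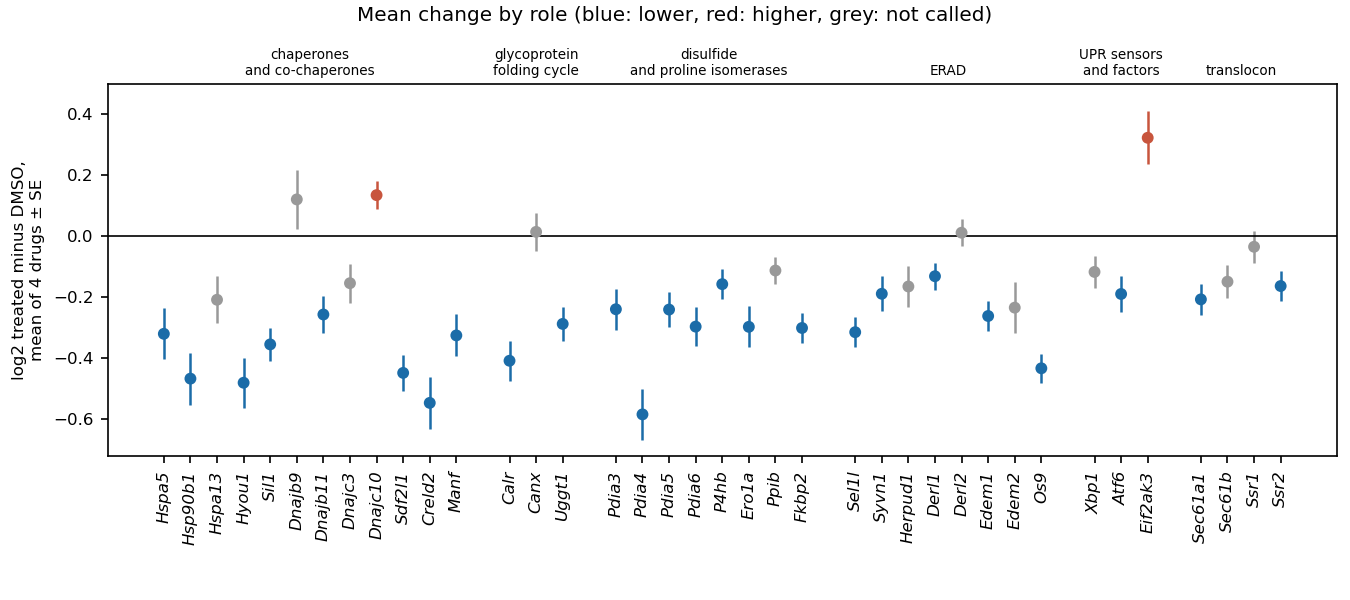
Mean change over the 4 drugs for the 38 measured genes, on the log2 scale (treated minus paired DMSO), grouped by role, with bars of 1 SE from limma (n = 12 pairs). Most folding factors lie between -0.60 and -0.10, while Eif2ak3 at 0.32 and Dnajc10 at 0.14 lie above 0.

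The control arrays themselves were not alike. By their correlations over all probe sets, the 12 DMSO arrays fell into 5 sets, a split taken from the data that the labels do not name. Array set 1 held pair 1 of every drug. Set 2 held pair 2 of BZP, of TFMPP and of MeOPP, and set 5 that of MDBP. Pair 3 of BZP and of MDBP made up set 3, and pair 3 of TFMPP and of MeOPP set 4. Arrays correlated at 0.9943 to 0.9971 within a set and at 0.9622 to 0.9919 between sets. In array set 3 many ER genes were low before any drug. Hepatocyte markers were measured at 10.45 to 14.06 on the log2 scale. In the mean of the drugs 5 of 9 hepatocyte markers were lower and 0 higher, against 2 lower and 1 higher of 9 Kupffer cell and leukocyte markers, 1 and 1 of 8 stellate cell markers, 0 of 5 endothelial markers and 0 of 5 cholangiocyte markers. At an unadjusted p under 0.05 the endothelial markers gave 1 and the cholangiocyte markers 0. The part of these shifts in the members' changes was not tested, and in bulk samples fewer cells of a type and less RNA per cell cannot be told apart.

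Several members share a control sequence that ATF6 is known to bind together with the factor NF-Y. The ER stress response element, CCAAT and CCACG with 9 bases of any kind between them, was searched on both strands from 250 bases before to 50 after the start in RefSeq's promoter table (GRCr8). Promoters were given for 31 of the 40 genes. The element stood in 8 of these genes (25.8%), Hspa5, Hsp90b1, Dnajc3, Creld2, Calr, Canx, Xbp1 and Derl3, and in 22 of 33469 windows of the table (0.0657%). The related element, ATTGG and CCACG with 1 base between them, stood in 3 of the genes (9.68%), Hyou1, Dnajb11 and Herpud1, and in 17 windows (0.0508%), and no promoter of a member held both. Members were counted as genes and the table as windows, which include those of the members, so the shares are not in the same unit. These are matches of letters and show no binding. The promoter of Hspa5, which encodes the central ER chaperone BiP, is shown for the 250 bases before its start (chr3:38452766-38453015, plus strand), with the element in capitals as in the windows after it.
Hspa5: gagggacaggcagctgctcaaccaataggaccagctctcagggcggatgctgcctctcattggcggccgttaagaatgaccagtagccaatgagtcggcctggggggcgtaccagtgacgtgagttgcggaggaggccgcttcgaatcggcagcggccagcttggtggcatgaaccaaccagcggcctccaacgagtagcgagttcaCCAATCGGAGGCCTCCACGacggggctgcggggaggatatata

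The windows below are shown because they belong to members that moved differently: Hsp90b1, Calr and Hyou1 were called lower, and Xbp1 was not called. Each reads 5′ to 3′ on the gene's own strand. In Hsp90b1 (chr7:23012441-23012479, minus strand) and Xbp1 (chr14:84604548-84604586, plus strand) the element reads along the gene. In Calr (chr19:40213125-40213163, plus strand) and Hyou1 (chr8:53602784-53602814, plus strand) it reads against it, so the capitals show its reverse complement. Hsp90b1 and Hyou1 each hold a second match that is not shown.
Hsp90b1: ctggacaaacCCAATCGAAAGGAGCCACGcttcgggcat
Xbp1: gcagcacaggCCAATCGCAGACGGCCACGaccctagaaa
Calr: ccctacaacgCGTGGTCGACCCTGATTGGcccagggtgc
Hyou1: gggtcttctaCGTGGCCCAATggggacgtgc

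Of the 10 measured genes with either element, 6 were called lower and 0 higher, with a median change of -0.29. Of the 20 measured genes whose promoter held neither, 11 were lower and 2 higher, with a median of -0.20. No test was made of this difference. Pdia4, which fell most, Sdf2l1, Sel1l and Eif2ak3 were among the genes with neither element in this window.

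Chaperones and co-chaperones fell in 8 of 12 members, with Dnajc10 higher and a median of -0.32. BiP binds unfolded chains as they enter the ER, and its gene Hspa5 was among the brightest members. In the DMSO arrays of pairs 1, 2 and 3 it lay at 12.84, 12.73 and 11.76 for BZP, 12.94, 12.67 and 13.07 for TFMPP, 12.83, 12.89 and 13.06 for MeOPP, and 12.98, 12.84 and 11.95 for MDBP. The treated arrays, in the same order, lay at 12.27, 12.38 and 12.11 for BZP, 12.47, 12.36 and 12.82 for TFMPP, 12.31, 12.42 and 12.59 for MeOPP, and 12.15, 12.72 and 12.12 for MDBP. The controls of pair 3 of BZP and of MDBP, which form array set 3, were the lowest of all 24 arrays, and those 2 pairs alone rose. The control and treated ranges overlapped, also without array set 3, and 10 of 12 pairs fell. Hspa5 changed by -0.32 ± 0.08 (SE, n = 12 pairs; limma adjusted p = 0.0104; exact sign-flip permutation p over the pairs = 0.00977, two-sided). It changed by -0.44 ± 0.07 without array set 3. The call was lost without array set 1 (-0.18 ± 0.08) and without array set 2 (-0.31), without the pair terms (limma adjusted p = 0.186) and with 1 value per array set (-0.24 ± 0.11). Over 24 alternatives its limma adjusted p ranged from 0.000234 to 0.196, and 19 of the 24 kept the call.

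Hsp90b1, the ER form of HSP90, changed by -0.47 ± 0.09 in 11 of 12 pairs and kept its call in all 24 alternatives. Hyou1, a nucleotide exchange factor of BiP, changed by -0.85, -0.33 and 0.04 in the pairs of BZP, by -0.94, -0.44 and 0.03 in those of TFMPP, by -0.47, -0.78 and -0.65 in those of MeOPP, and by -0.70, -0.36 and -0.31 in those of MDBP. Its mean was -0.48 ± 0.08, with both rises close to 0. Sil1, another exchange factor of BiP, fell in 12 of 12 pairs, by 0.35 ± 0.05 in the mean.

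Sdf2l1, a partner of ER J-domain proteins, fell in every pair. Its changes were -0.59, -0.50 and -0.02 with BZP, -0.54, -0.56 and -0.12 with TFMPP, -0.60, -0.49 and -0.51 with MeOPP, and -0.65, -0.43 and -0.36 with MDBP. The mean was -0.45 ± 0.06 (limma adjusted p = 3.49e-05; exact sign-flip p = 0.000488, the smallest that 12 pairs allow). Creld2, a secreted ER stress protein, changed by -0.67, -0.60 and 0.13 with BZP, -0.89, -0.74 and -0.37 with TFMPP, -0.90, -0.68 and -0.86 with MeOPP, and -0.89, -0.13 and 0.05 with MDBP, for a mean of -0.55 ± 0.08. Manf, a secreted protein that binds BiP, changed by -0.41, -0.36 and -0.06 with BZP, -0.63, -0.39 and -0.27 with TFMPP, -0.49, -0.30 and -0.39 with MeOPP, and -0.73, -0.07 and 0.19 with MDBP, for a mean of -0.32 ± 0.07. In all 3 genes the shallow or positive values were those of pair 3 of BZP, TFMPP or MDBP and, for Creld2 and Manf, of pair 2 of MDBP. Manf lost its call without array set 1 (-0.21, limma adjusted p = 0.0506, in a range over its alternatives of 0.00049 to 0.173).

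The J-domain proteins, which steer BiP to its clients, did not move together. Dnajb11 fell by 0.26 ± 0.06, a call lost without array set 1 (-0.21) and without set 2 (-0.22). Dnajc3 stood at -0.15 ± 0.06 and Hspa13, an HSP70-like ATPase of microsomes, at -0.21 ± 0.08, and neither was called. Without array set 3 both were, at -0.24 ± 0.05 and -0.30 ± 0.06. Dnajc10, a J protein that also reduces disulfides for degradation, rose by 0.14 ± 0.05 in 11 of 12 pairs (limma adjusted p = 0.0412). That call was lost when any 1 of the 5 array sets was left out, at 0.11 to 0.15, and in 10 of 12 fits without a single pair. Its second probe set was at 0.02 and not called.

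Dnajb9, a J protein induced strongly in the UPR, had the widest spread over pairs of all members, with an SD of 0.38. Its DMSO levels were 10.89, 10.87 and 8.81 for BZP, 10.99, 10.87 and 11.03 for TFMPP, 10.96, 11.04 and 10.85 for MeOPP, and 11.12, 10.52 and 9.35 for MDBP. Treated levels were 10.88, 10.62 and 9.83, then 11.17, 10.92 and 10.90, then 11.11, 10.92 and 10.84, and last 10.78, 10.86 and 9.94. The arrays of set 3 were the lowest in both states. Its change was -0.01, -0.26 and 1.02 with BZP, 0.18, 0.05 and -0.13 with TFMPP, 0.14, -0.12 and -0.01 with MeOPP, and -0.33, 0.35 and 0.59 with MDBP. Of the 12 pairs 6 rose and 6 fell, and the mean of 0.12 ± 0.10 was not called (limma adjusted p = 0.44; exact sign-flip p = 0.32). The mean was 0.81 in array set 3 and -0.02 in the other sets.

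**Figure D2:**
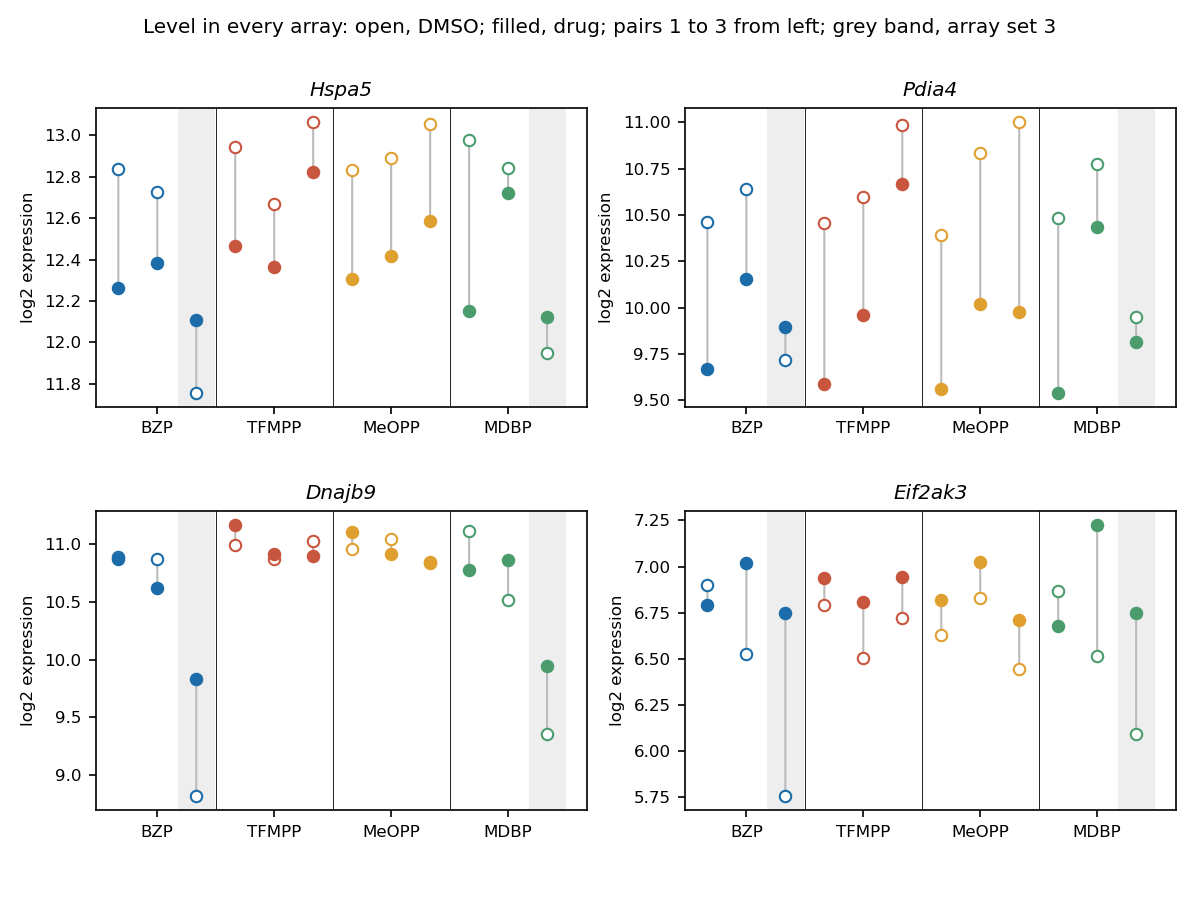
Log2 expression of Hspa5, Pdia4, Dnajb9 and Eif2ak3 in each DMSO array and its treated partner, 1 line per pair, with the drugs side by side and the pairs of array set 3 marked. For Hspa5 and Dnajb9 the marked controls, at 11.76 and 11.95 and at 8.81 and 9.35, lie below all other controls.

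In the glycoprotein folding cycle Calr and Uggt1 fell and Canx did not pass, with a median of -0.29 over the 3 genes. Calr, the soluble lectin calreticulin, changed by -0.41 ± 0.07 in 11 of 12 pairs and kept its call in all 24 alternatives. Uggt1, the glucosyltransferase that returns misfolded glycoproteins to the cycle, changed by -0.29 ± 0.06 in 12 of 12 pairs. Canx, the membrane lectin calnexin, lay at 0.02 ± 0.06, with 6 pairs above and 6 below 0. Its other 2 probe sets differed: one was lower by -0.34 ± 0.05 (limma adjusted p = 8.07e-05) and one lay at 0.03 ± 0.07.

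Disulfide and proline isomerases fell in 7 of 8 members, with a median of -0.27. Pdia4, a disulfide isomerase with an extra thioredoxin domain, had the deepest fall of all members. Its DMSO levels were 10.46, 10.64 and 9.72 for BZP, 10.46, 10.59 and 10.98 for TFMPP, 10.39, 10.84 and 11.00 for MeOPP, and 10.48, 10.78 and 9.95 for MDBP. After treatment they were 9.67, 10.15 and 9.90 for BZP, 9.59, 9.96 and 10.67 for TFMPP, 9.56, 10.02 and 9.98 for MeOPP, and 9.54, 10.44 and 9.82 for MDBP. All pairs but pair 3 of BZP fell, and the ranges overlapped, also without array set 3. Pdia4 changed by -0.58 ± 0.08 (1.5-fold; limma adjusted p = 8.09e-05; exact sign-flip p = 0.00146) and kept its call in all 24 alternatives. It changed by -0.69 ± 0.07 without array set 3 and by -0.45 ± 0.08 without array set 1.

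The other isomerases moved less. Fkbp2, a proline isomerase, changed by -0.30 ± 0.05 in 12 of 12 pairs, and Pdia6, Ero1a, the oxidase that recharges the isomerases, Pdia5 and Pdia3 changed by -0.30, -0.30, -0.24 and -0.24. P4hb, the classic protein disulfide isomerase, changed by -0.16 ± 0.05. Its call was lost without array sets 1, 2 or 4 (-0.09, -0.18 and -0.16) and without pair 1 of any drug or pair 3 of MeOPP (-0.16 to -0.13). Pdia3 and Pdia6 lost theirs without array set 1 (-0.14 and -0.20), and Pdia3 and Pdia5 without set 2 (-0.26 and -0.16). Ppib, cyclophilin B, stood at -0.11 ± 0.04 with 11 of 12 pairs below 0 and was not called.

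ERAD genes fell in 5 of 8 measured members, with a median of -0.21. Os9, a lectin that hands glycoproteins to the ERAD ligase, fell in every pair, by -0.57, -0.28 and -0.64 with BZP, -0.36, -0.29 and -0.23 with TFMPP, -0.51, -0.65 and -0.46 with MeOPP, and -0.54, -0.29 and -0.36 with MDBP. Its pairs in array set 3 were not shallow, and its mean of -0.43 ± 0.05 had the smallest limma adjusted p of the members, 5.1e-06. Sel1l, the scaffold of the ligase, also fell in 12 of 12 pairs, by -0.22, -0.12 and -0.19, then -0.39, -0.31 and -0.04, then -0.28, -0.65 and -0.54, and last -0.46, -0.26 and -0.29, in the same order of drugs. Its mean was -0.31 ± 0.05 (exact sign-flip p = 0.000488).

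Edem1, which trims mannose from glycoproteins bound for degradation, fell in the mean, with values that differed by drug. Its changes were -0.16, -0.38 and 0.06 with BZP, -0.06, 0.07 and -0.03 with TFMPP, -0.49, -0.63 and -0.40 with MeOPP, and -0.40, -0.42 and -0.28 with MDBP. All 6 pairs of MeOPP and MDBP lay below all 3 pairs of TFMPP. The mean was -0.26 ± 0.05, called in all 24 alternatives. The difference of TFMPP minus MeOPP was 0.50 (95% interval 0.21 to 0.79) and that of TFMPP minus MDBP 0.36, and neither was called (limma adjusted p = 0.75 and 0.699). Syvn1, the ligase itself, and Derl1, a channel protein, fell by 0.19 ± 0.06 and 0.13 ± 0.04. Syvn1 lost its call without array sets 1 or 3 (-0.10 and -0.18) and without pair 1 of any drug or pair 3 of MDBP (-0.18 to -0.16). Derl1 lost it without any 1 of the sets but set 3 (-0.14 to -0.10) and in 10 of 12 fits without a single pair.

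The other ERAD members were not called. Herpud1, an ER stress gene that recruits the ligase, changed by -0.52, 0.03 and -0.01 with BZP, -0.31, -0.22 and 0.04 with TFMPP, -0.15, -0.23 and -0.14 with MeOPP, and -0.62, 0.13 and 0.05 with MDBP. Its mean was -0.16 ± 0.07 (limma adjusted p = 0.105; exact sign-flip p = 0.0303), and its 3 deepest values were those of pair 1 of 3 drugs. Edem2 stood at -0.23 ± 0.08 and Derl2 at 0.01 ± 0.04. A second, dimmer probe set of Derl2 was called lower, at -0.27 ± 0.08.

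Sensors and factors of the UPR moved in both directions. Eif2ak3, which encodes the sensor kinase PERK (probe set with a DMSO mean of 6.55), was the member that rose most. Its DMSO levels were 6.90, 6.53 and 5.75 for BZP, 6.79, 6.51 and 6.72 for TFMPP, 6.63, 6.83 and 6.44 for MeOPP, and 6.87, 6.51 and 6.09 for MDBP. The treated levels were 6.79, 7.02 and 6.75 for BZP, 6.94, 6.81 and 6.94 for TFMPP, 6.82, 7.02 and 6.71 for MeOPP, and 6.68, 7.23 and 6.75 for MDBP. Treated arrays were closer to each other than controls, with an SD of 0.16 against 0.34, and the lowest controls were those of array set 3. Eif2ak3 rose by 0.32 ± 0.09 (limma adjusted p = 0.0125; exact sign-flip p = 0.00537), in 10 of 12 pairs. The pairs that did not rise were pair 1 of BZP (-0.11) and pair 1 of MDBP (-0.19). The rise was 0.83 in array set 3 and 0.22 in the other sets. Its call was lost without array set 3 (0.22 ± 0.08, limma adjusted p = 0.0711), without set 2 (0.31) and without set 4 (0.32), and without the pair terms (limma adjusted p = 0.108). Without array set 1 it was 0.48 ± 0.07. The limma adjusted p ranged from 0.000516 to 0.108 over 24 alternatives, 19 of which kept the call.

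Atf6, the sensor that becomes a transcription factor when cut in the Golgi, changed by -0.35, -0.11 and 0.20 with BZP, -0.16, -0.20 and -0.04 with TFMPP, -0.18, -0.41 and -0.24 with MeOPP, and -0.60, -0.16 and -0.02 with MDBP. Its mean was -0.19 ± 0.06 (limma adjusted p = 0.0305), a small fall whose call was kept in 11 of 24 alternatives. It was lost without array sets 1, 2 or 4 (-0.12, -0.16 and -0.20) and without pair 1 or 2 of BZP or of TFMPP, pair 2 of MeOPP or pair 1 of MDBP (-0.19 to -0.15). Its second, dimmer probe set was at -0.04 and not called. Xbp1, whose spliced RNA encodes the factor that drives ERAD genes, changed by -0.31, 0.02 and -0.03 with BZP, -0.31, -0.06 and -0.11 with TFMPP, 0.07, -0.06 and -0.15 with MeOPP, and -0.37, -0.14 and 0.06 with MDBP. Its mean was -0.12 ± 0.05 and not called (limma adjusted p = 0.13; exact sign-flip p = 0.0171). Its 3 deepest values were again those of pair 1. The probe set reads total Xbp1, so splicing was not measured. The exact tests were run for 13 members, and adjusted over those 13 only Dnajb9, at 0.32, was above 0.05. Over the 5 array sets the smallest p such a test allows is 0.0625, so none could fall under 0.05. The exact sign-flip p over sets was 0.0625 for Hyou1, Sdf2l1, Sel1l, Edem1 and Eif2ak3. It was 0.125 for Pdia4, Creld2, Manf, Xbp1 and Atf6, 0.1875 for Hspa5, 0.4375 for Herpud1 and 0.5 for Dnajb9.

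The translocon fell in 2 of 4 members, with a median of -0.16. Sec61a1, the channel subunit, changed by -0.21 ± 0.05 in 11 of 12 pairs and Ssr2, a translocon-associated protein, by -0.16 ± 0.05. Sec61a1 lost its call without array set 1 (-0.13). Ssr2 lost it without array sets 1, 4 or 5 (-0.15 to -0.13), and without pair 1 or 3 of MeOPP or pair 1 or 2 of MDBP (-0.15). Sec61b stood at -0.15 ± 0.05, not called, and was called without array set 3 (-0.20 ± 0.06). Ssr1 lay at -0.03 ± 0.05, while its second probe set was lower by -0.21 ± 0.06.

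By role, the folding factors (chaperones, the glycoprotein cycle and the isomerases) were lower in 17 of 23 and higher in 1, with a median of -0.30. ERAD parts were lower in 5 of 8 with a median of -0.21, and the 3 sensors and factors were lower in 1 and higher in 1 with a median of -0.12. The medians thus ran from the folding factors down to the sensors, a description with no test. Of the 27 called members, 21 kept their call when any 1 of the 12 pairs was left out, and 13 also when any 1 of the array sets was.

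The group's median was below 0 with each drug, and MeOPP had the most calls. The median rested partly on 1 pair for BZP, at -0.05 without its pair 1, and for MDBP, at -0.09 without its pair 1. With BZP 2 members were lower, Fkbp2 and Os9 (5.26% against 5.96% of all genes), and the median was -0.15. With TFMPP limma called 0 lower and 0 higher (against 1.71% lower and 0.872% higher of all genes), although the median was -0.22, and 17 members had an unadjusted p under 0.05. With MeOPP 12 were lower (31.6% against 4.52%), with a median of -0.32, and with MDBP 6 were lower (15.8% against 5.05%), with a median of -0.21. No member was called higher with a single drug, where the shares of all genes were 6.66% for BZP, 3.45% for MeOPP and 4.68% for MDBP. At an unadjusted p under 0.05, 8 members passed with BZP, 28 with MeOPP and 16 with MDBP. Of all 31042 probe sets, 6895 passed this rule for BZP, a share close to that of the members. The count of probe sets was 5672 for MeOPP, 6154 for MDBP and 3600 for TFMPP.

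The MeOPP calls were led by Pdia4 at -0.89, Creld2 at -0.81, Hsp90b1 at -0.75 and Hyou1 at -0.63. Calr, Os9, Sdf2l1, Ero1a, Edem1, Sel1l, Pdia6 and Sil1 followed at -0.58 to -0.45. Of the 12, 9 were folding factors and 3 were ERAD parts. The MDBP calls were Sil1 (-0.40), Sdf2l1 (-0.48), Calr (-0.49), Sel1l (-0.34), Edem1 (-0.37) and Os9 (-0.40), all also called with MeOPP. Calls by single drug rest on 3 pairs and were fragile. The MeOPP count was 5, 4 and 6 without its pairs 1, 2 and 3. Leaving out pair 1 or 2 of MDBP left 0 calls for it, and leaving out pair 3 left 2. The BZP count was 1 without its pair 1 or 2. The TFMPP count was 3 without pair 3 of BZP and 1 without pair 1 or 3 of MDBP.

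**Figure D3:**
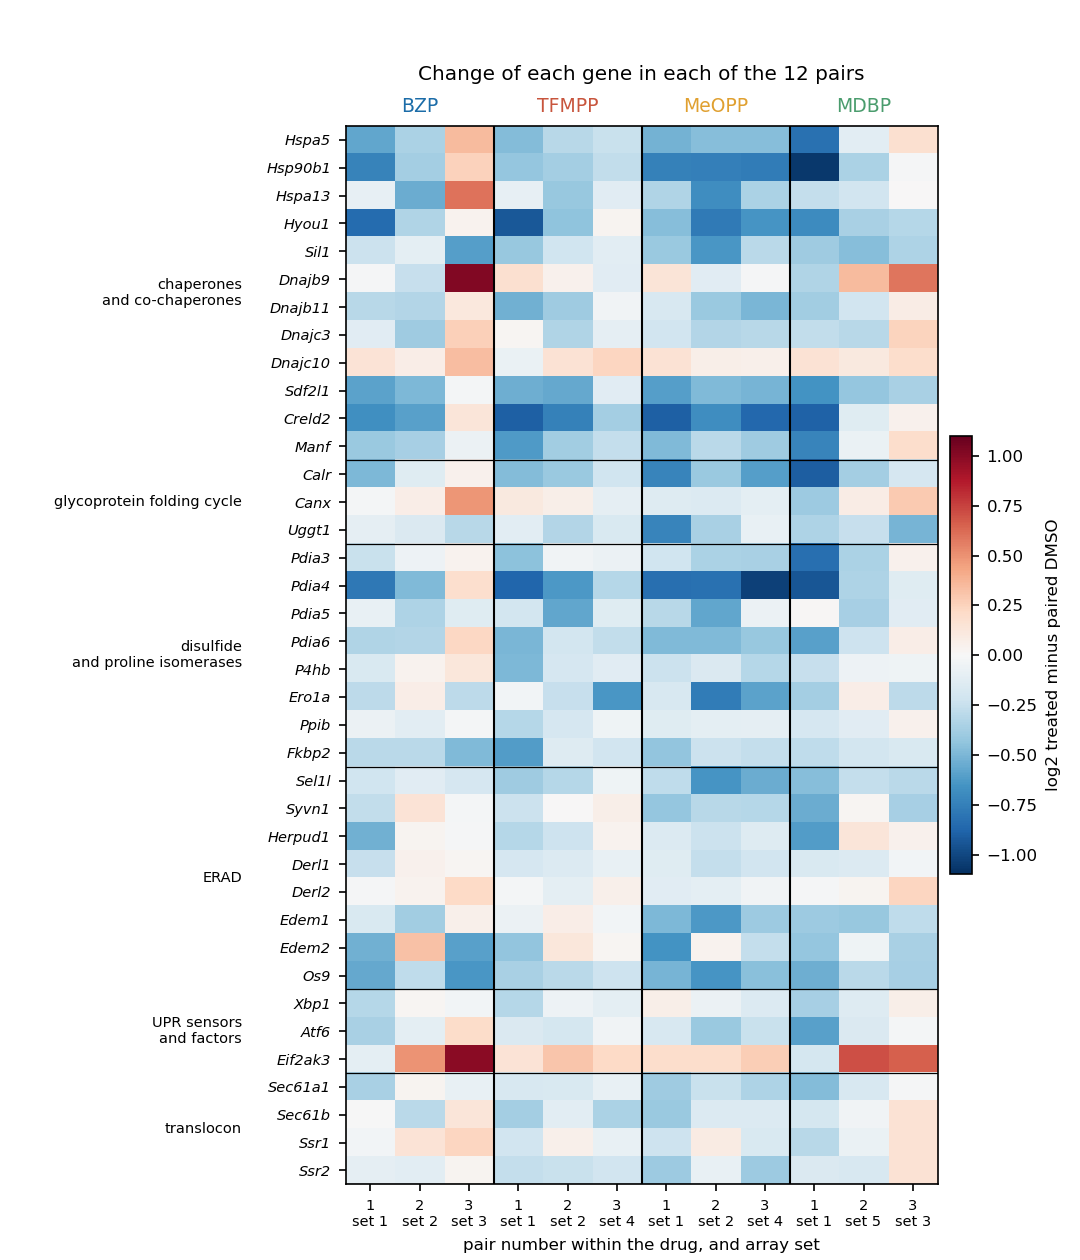
Change of each measured gene (rows, by role) in each of the 12 pairs (columns, by drug), as log2 treated minus paired DMSO, with blue for lower and red for higher. Pair 3 of BZP and of MDBP, which form array set 3, show red for several chaperones, such as Hspa5, that are blue in the other columns.

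The piperazine ring bears a benzyl group in BZP and MDBP, whereas in TFMPP and MeOPP it bears a phenyl group. Concentrations differed, each being that drug's EC20, so the drugs are set side by side at these concentrations and not at a matched dose. In 7 contrasts, 6 between pairs of drugs and 1 of benzyl minus phenyl drugs, limma called 0 of 38 members (0.0914% of all genes for BZP minus TFMPP and 0% in the other 6), with 0 to 3 at an unadjusted p under 0.05 in each contrast. The lowest adjusted p of any member was 0.597. The 95% interval of a member's difference had a median half-width of 0.36 between 2 drugs and 0.25 between the benzyl and phenyl drugs. These intervals are not adjusted for the number of probe sets, so differences larger than these widths could also go uncalled. The largest difference was that of Pdia4, which changed by -0.36 with BZP and -0.89 with MeOPP, a difference of 0.53 (95% interval 0.02 to 1.03; limma adjusted p = 0.708).

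Members lay higher with the benzyl than with the phenyl drugs, with a median difference of 0.12 and 33 of 38 above 0. Array set 3 holds benzyl pairs and no phenyl pair. Within array set 1, which holds 1 pair of every drug, the median difference was -0.01 and 16 of 38 were above 0. Without array set 3 it was 0.03, with 23 of 38 above 0. In array set 2, which holds BZP, TFMPP and MeOPP, the group's median was -0.13 with BZP, -0.21 with TFMPP and -0.34 with MeOPP. The pooled difference between the structures was thus absent in array set 1, while in set 2 the benzyl drug lay higher. The difference within set 2 was not tested.

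The spread between pairs went only partly with the array sets. Array set 3 stood apart, but it holds only pairs of BZP and MDBP, so set and drug are partly tied. Pair 3 of TFMPP and of MeOPP shared a set yet differed. The pairs of MeOPP, each in a different set, lay close together. The group's median in pairs 1, 2 and 3 was -0.26, -0.13 and 0.04 with BZP, -0.32, -0.21 and -0.11 with TFMPP, -0.36, -0.34 and -0.32 with MeOPP, and -0.39, -0.16 and -0.00 with MDBP. By array set it was -0.33, -0.26, 0.03, -0.21 and -0.16 for sets 1 to 5, with 36, 34, 15, 35 and 30 of 38 members below 0. Array set 3 alone had most members above 0.

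Roles differed in this. In array set 3 the chaperones had a median of 0.11 with 3 of 12 below 0, against -0.46 to -0.21 in the other sets. The isomerases were at 0.02 in set 3 and at -0.35 to -0.21 elsewhere. ERAD parts were at -0.15 in set 3, within their range of -0.36 to -0.10 elsewhere, with 6 of 8 below 0. The pairs of set 3 differed in this, with an ERAD median of -0.02 for BZP and -0.29 for MDBP. Single pairs of the other sets ran from -0.44 to 0.03. The 3 sensors and factors were at 0.09 and all above 0 in set 3, and at -0.23 to -0.03 elsewhere. Without array set 3, 27 members were called lower and 0 higher.

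**Figure D4:**
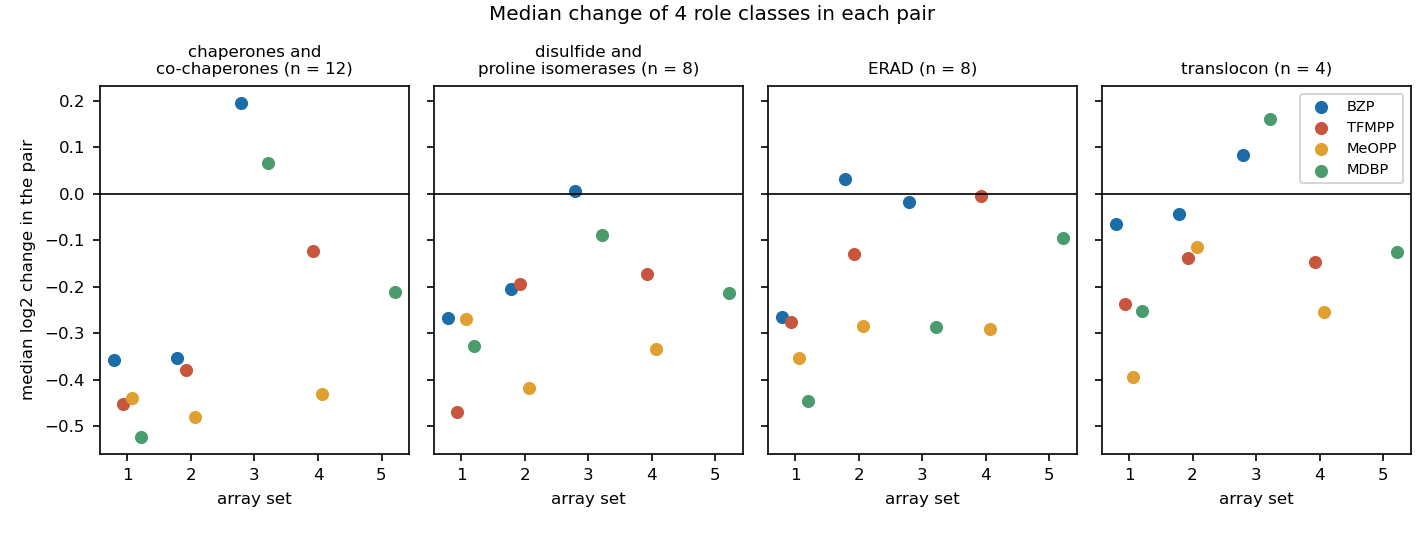
Median change of roles in the pairs of the 5 array sets, on the log2 scale (treated minus paired DMSO). In the BZP and MDBP pairs of array set 3, chaperones lie at 0.19 and 0.07 and isomerases at 0.01 and -0.09. These lie above the pairs of the other 4 sets, while ERAD parts at -0.02 and -0.29 do not stand apart. Taken over array set 3, the medians were 0.11 for chaperones, 0.02 for isomerases and -0.15 for ERAD parts.

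Many members were low in the controls of array set 3. In 17 of 38 members (44.7%) both set 3 DMSO arrays lay below all 10 others, and in 3 (7.89%) above all, against 13.1% and 18.7% of all genes. Relative to the other controls the mean of these 2 lay at -1.83 for Dnajb9 on the log2 scale, followed by Creld2 at -1.29, Hspa13 at -1.09, Hspa5 at -1.03, Hsp90b1 and Ero1a at -0.96, Pdia4 at -0.83 and Eif2ak3 at -0.75. Pdia5 (1.51), Uggt1 (0.88), Edem2 (0.74) and Sil1 (0.60) were higher there. Of the chaperones 8 of 12 lay below all other controls, of the isomerases 2 of 8, of ERAD parts 3 of 8 and of the translocon 0 of 4.

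After treatment this gap was narrower for several members. Hspa5 lay at -0.34 in the treated arrays of set 3 relative to the other treated arrays, Pdia4 at -0.10, Eif2ak3 at -0.15 and Dnajb9 at -1.01. The SD over 12 arrays was 0.42 for Hspa5 in DMSO and 0.23 after treatment, and 0.74 and 0.42 for Dnajb9. For Ero1a the gap was as wide after treatment, at -0.95, and for Pdia5, at 1.65, it did not narrow. In the same set 3 controls, 11 of 12 genes of the PERK and ATF4 arm (91.7%) lay below all others. So did 3 of 5 sinusoidal endothelial markers. Relative to each gene's mean over the 12 DMSO arrays, the endothelial median was -1.31 and -1.13 there, against -0.50 to 0.83 in the other controls. Of 9 hepatocyte markers 4 lay above all others. RNA quality, read as the 3′ minus 5′ signal of control transcripts, was 1.27 and 1.42 in these controls, within the 1.14 to 1.75 of all controls. It differed between sets. Controls of array set 1 lay at 1.34 to 1.75, those of sets 2 and 4 at 1.14 to 1.29, and that of set 5 at 1.499. Within pairs this signal moved both ways with treatment, as from 1.34 to 1.72 in pair 1 of TFMPP and from 1.60 to 1.45 in pair 1 of MeOPP. The part of these shifts in the members' changes was not tested.

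By promoter, the 10 measured genes with either element had a median change of 0.09 in array set 3 and -0.38 in the other sets, against 0.02 and -0.21 for the 20 with neither. Their DMSO level in set 3 relative to the others had a median of -0.49, against -0.11. No test was made of these differences.

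Other genes of the secretory pathway, from lists outside the 38 members, were counted in the mean of the drugs against the same 11.9% lower and 18.0% higher. Of 13 genes of N-glycosylation and trimming 6 were lower and 1 was higher. Ganab, a glucosidase that trims new glycans, changed by -0.42 ± 0.07, and Stt3a, a catalytic subunit of the oligosaccharyltransferase, by -0.29 ± 0.06. Of 13 measured genes of translocation and signal peptidase 4 were lower and 0 higher, led by Sec11c, a signal peptidase subunit, at -0.68 ± 0.07 and Sec63, a partner of the translocon, at -0.54 ± 0.05, both in 12 of 12 pairs. At an unadjusted p under 0.05 there were 7. Transport from ER to Golgi had 8 lower and 1 higher of 23 measured, among them the coat subunit Sec24d at -0.47 ± 0.06 and Lman1, a cargo receptor of clotting factors, at -0.26 ± 0.05.

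Some further lists held larger changes in both directions. Thioredoxin-like and oxidative folding genes had 6 lower and 3 higher of 17, with Ero1b, the second ER oxidase, at -0.69 ± 0.06 and Txndc12, a thioredoxin-like ER protein, at 0.44 ± 0.05, each in 12 of 12 pairs. ER calcium genes had 4 lower and 2 higher of 10. Itpr1, an ER calcium release channel, changed by -1.08 ± 0.07, beyond any member, and Itpr2, its relative, by -0.34 ± 0.06, while Rcn2, a calcium binding protein, rose by 0.52 ± 0.09.

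Few ERAD genes beyond the members were called. Of 19 measured, 1 was lower, Ngly1, which removes glycans from extracted proteins (-0.35 ± 0.04), and 3 were higher, among them the conjugating enzyme Ube2j1 at 0.25 ± 0.05. Their median was 0.01. Of 16 genes listed as UPR regulators 2 were lower and 3 higher. Hspbap1, which is in this list but is not an established UPR regulator, was at 0.44 ± 0.06. Cdk5rap3 was at -0.24 ± 0.05 and Atf6b, the relative of Atf6, at 0.20 ± 0.05.

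Genes listed under the PERK and ATF4 arm had 7 higher and 1 lower of 12, with a median of 0.23. The activity of PERK was not measured, and a link of these changes to Eif2ak3 was not tested. Chac1, a glutathione-degrading enzyme, rose by 0.72 ± 0.13 and Atf3, a stress transcription factor, by 0.57 ± 0.14. Atf4 itself rose by 0.37 ± 0.07 in 12 of 12 pairs, Ddit3, which encodes CHOP, stood at 0.10 ± 0.11, and Cebpb changed by -0.20 ± 0.05. This list was low in the controls of array set 3 as Eif2ak3 was. Relative to each gene's mean over the 12 DMSO arrays, its median was -0.75 and -0.73 in those controls and -0.04 and 0.06 in their treated partners. In the other controls it was -0.25 to 0.35, and in the other treated arrays -0.10 to 0.52. Without array set 3, a setting added after the data were seen, 4 of the 12 were higher (Chac1 at 0.56, Atf3 at 0.38, Atf4 at 0.28 and Ppp1r15a at 0.24) and 1 lower, with a median of 0.15.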

How the data were processed

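Log2 expression of 24 arrays of rat hepatocytes was taken from the table the authors deposited. Its log2 values were made by RMA (background correction, quantile normalization and probe summary), per the submitters' processing notes, from 100 ng of total RNA per sample, per the labels' protocols. The RMA release was not given in the sources used here. Medians of the arrays were 4.448 to 4.519, and values were used as deposited. Arrays carry no read depth, and their number limits the precision.

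Of 31099 probe sets, 57 controls were left out and 31042 tested. The platform annotation gave 1 symbol for 20826, several for 436 and none for 9780. All arrays were fitted together with limma 3.58.1 (R version 4.3.3). The model held a term for each of 12 pairs and 4 drugs, leaving 8 residual degrees of freedom with 7.66 from the empirical Bayes prior. Tests were two-sided, for each drug, their mean and 7 contrasts between drugs, adjusted by the Benjamini-Hochberg method. SE is the model's. Single members were also tested by an exact sign-flip permutation over pairs. Simulated data with 200 changed probe sets were made for the mean of the drugs over 31042 probe sets. In them 60% of changes of 0.3 and 96% of changes of 0.6 were recovered, and 4.29% of calls were false. These rates belong to the simulated data and may not hold for these arrays, where pairs of the same array set resemble each other. Plots and sequence searches used Python 3.11.15 with matplotlib 3.10.9.

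The pairing comes from the labels. In each of the 12 pairs both arrays deviated from their group means together, with correlations of 0.612 to 0.802. Arrays of different pairs in the same array set were not compared, so these values cannot tell the pairing from the sets. The 5 array sets are average-linkage clusters of the DMSO arrays.

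The members, their roles, the other gene lists, the rule for named genes and the alternatives were chosen with earlier results of these data known. Values in every pair are given for 13 measured stress-response members and for the largest rise, fall, spread and drug difference. Each other list names up to 3 called genes with the largest change, and Os9, Ddit3, Atf4 and Cebpb were named after their values were seen. Protein sequences were not used here.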

Additional observations from a re-analysis of the deposited data

How the results depend on the processing

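The counts of calls changed with the settings more than the medians did. The members' median, in the mean and by drug, and the 6 role medians, in the mean, were below 0 in all 264 alternatives, from -0.37 to -0.05. Only 173 of these changed the median at all. Leaving out 1 pair at a time, the members' median ran from -0.25 to -0.20 in the mean, -0.28 to -0.09 for MDBP, -0.35 to -0.32 for MeOPP, -0.25 to -0.18 for TFMPP and -0.17 to -0.05 for BZP. The MeOPP median moved to -0.28 with the 12 DMSO arrays joined and to -0.35 without array set 2. Genes of the PERK and ATF4 arm called higher numbered 4 without array set 3, a setting added after the data were seen. Without the pair terms (no replicate block), members lower numbered 4 in the mean and 0 with BZP, MeOPP and MDBP, and 0 were higher in the mean. With the DMSO arrays joined as 1 control group, lower members numbered 6 in the mean, 0 with BZP, 1 with MeOPP and 0 with MDBP, and 0 were higher in the mean. With 1 value per array set 13 were lower and 1 higher. Without array set 1, lower members numbered 14 in the mean, 0 with BZP, 6 with MeOPP and 0 with MDBP, and 1 was higher in the mean, with BZP and with MDBP. Higher members in the mean numbered 0 without sets 2, 3 or 4, 1 without set 5 and 1 when a gene's probe sets were averaged. Lower members with BZP numbered 5 without set 3, 1 without set 4, 4 among probe sets with a mean of at least 5 and 0 with only that drug's arrays. With TFMPP they numbered 2 without set 3, 1 at a mean of at least 5 and 3 with only its arrays. With MeOPP they numbered 1 without set 2 and 4 without set 4, and with MDBP 3 without set 4, 0 without set 5 and 1 with only its arrays. Leaving out 1 pair at a time, the counts lower ran from 20 to 28 in the mean, 1 to 3 for BZP, 0 to 3 for TFMPP, 4 to 15 for MeOPP and 0 to 7 for MDBP, and those higher from 1 to 2 in the mean and 0 to 1 with BZP and with MDBP. Of single genes in the mean, 759 alternatives kept the call or its absence, 134 lost a call and 19 gained one, and 0 reversed a called change. Differences between drugs stayed at 0 calls throughout. Apart from settings with fewer arrays, the cause of these shifts was not tested. Arrays of 3 pairs per drug limit calls by drug.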
